A study of Mus musculus with 2 samples.

Results

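The genes described here encode the subunits of oxidative phosphorylation. They were chosen by name from the 27998 genes of the count table: symbols starting with Ndufa, Ndufb, Ndufc, Ndufs, Ndufv, Uqcr, Cox4 to Cox8 and Atp5, the Sdh genes, and the protein-coding genes of the mitochondrial genome. Assembly factors, pseudogenes and the low-oxygen isoforms Ndufa4l2 and Cox4i2 were left out. This gave 96 genes, of which 83 lie in the nuclear and 13 in the mitochondrial genome. Complex I has 43 of them, complex II 4, complex III 9, complex IV 21 and complex V 17. The other 2, Atp5s and Atp5sl, carry the name but encode no subunit, and they stayed out of the sums.

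Oxidative phosphorylation takes place in the inner mitochondrial membrane. Complexes I to IV pass electrons from NADH and succinate to oxygen and, except complex II, pump protons. Complex V, the ATP synthase, lets the protons flow back and makes ATP. All complexes but complex II combine proteins of both genomes, so their subunits are read by 2 transcription systems: nuclear genes one by one, the mitochondrial genes as long RNAs of both strands that are later processed into single messages. Embryonic endothelium is known to draw much of its energy from glycolysis, and low oxygen is known to shift some subunit isoforms.

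The study profiled cells from mouse embryos (C57BL/6J) with the droplet-based 3′ method, in which every captured RNA molecule is counted once as a UMI (unique molecular identifier). Tissue was the dorsal aorta plus 2 extraembryonic arteries, the umbilical and the vitelline, and cells were sorted as Ter119- CD41lo/- CD31+CD144+ ESAM+, a gate for endothelium. The control library joins embryos of genotypes Mekk3 fl/fl and Mekk3 fl/+ at embryonic day 9.5. The mutant library is Mekk3 fl/-; Tie2Cre+, with 1 allele already deleted and the floxed one to be removed by a Cre under the Tie2 promoter, which is active in endothelium and in blood cells. Its stage label reads day 9.7, while its title gives the same day as the control. Each genotype has 1 library, and its number of embryos is not labelled, so genotype, stage and library cannot be told apart and no p-value was made. Where a pair of levels is given, the control comes first; ratios are mutant over control, and intervals are at 95% and cover counting error only.

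The control library held 6675 cells with a median of 7566 UMIs and the mutant library 3242 with a median of 5647. Endothelial-like cells were 5968 (89.4%) and 2346 (72.4%) of them, with 56007162 and 18364698 UMIs in all and medians of 7924.5 and 7201.5. They detected all 10 endothelial markers in both libraries, at a summed 4097 and 3221 CPM (a gene's count over all UMIs, scaled to parts per 1e6). The 10 hematopoietic markers summed to 30.2 and 26.5 CPM with Ptprc, Myb and Csf1r at 0 in the mutant, and the 10 erythroid markers to 116 and 4.03 CPM with Alas2 and Gata1 among those at 0 there. Smooth muscle markers summed to 50.1 and 30.5, neural to 69.0 and 32.2, cardiac to 23.2 and 37.8, mesenchymal to 9.32 and 9.15 and epithelial to 3.54 and 3.59 CPM. The part of these other cells in the results below was not tested. Shallow or otherwise unnamed clusters held 5.81% of control and 25.4% of mutant cells. The targeted gene Map3k3 (Mekk3) had 9.37 CPM in control and 10.1 CPM in mutant cells, but a 3′ count does not check the deletion of an internal exon. The libraries shared 5 cell barcodes.

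Nearly all mitochondrial subunit genes lie on 1 strand, and some neighbours overlap. The ends of mt-Atp8 and mt-Nd4l are shown because the start of the next gene is inside them, so that 2 subunits are read from the same bases. In mouse build GRCm38 (mm10), mt-Atp8 spans 7766 to 7969 and mt-Atp6 spans 7927 to 8607 of chromosome M, sharing 43 bases. The genes mt-Nd4l (9877 to 10173) and mt-Nd4 (10167 to 11544) share 7. Each line gives the last 60 bases of the upstream gene, plus strand, 5′ to 3′, from GENCODE, with the shared bases in capitals.
mt-Atp8, end: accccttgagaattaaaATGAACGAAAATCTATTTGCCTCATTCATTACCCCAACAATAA
mt-Nd4l, end: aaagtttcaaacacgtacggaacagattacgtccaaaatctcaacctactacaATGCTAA
A 3′ count of such a joint message names only the gene that holds the read, so values of overlapping neighbours are uncertain against each other.

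Mitochondrially encoded subunit RNA was lower in the mutant endothelial-like cells, but not evenly: mt-Cytb, mt-Nd4 and mt-Atp6 were at less than 0.5 times the control level, while mt-Co1, mt-Nd5 and mt-Nd6 were above it. All 13 genes together went from 40857 CPM in control to 26735 CPM in mutant cells (ratio 0.654, 0.652 to 0.656). Of the 13, 9 had an interval below 1 and 3 an interval above 1, where 43.7% and 23.7% of all 12876 measured genes did. Among genes with a mean of at least 50 CPM, whose intervals are narrower, 59.3% and 30.3% did. The sum stayed lower under each scaling and choice of cells tried, with log2 ratios between -0.72 and -0.42.

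The message of mt-Cytb, the cytochrome b core of complex III, went from 6475 CPM in control to 2696 CPM in mutant cells (ratio 0.416). That of mt-Nd4, a proton-pumping core subunit of complex I, went from 3327 to 1486 CPM (ratio 0.447). For mt-Atp6, the subunit a of the proton channel in complex V, the values were 9151 and 4366 CPM (ratio 0.477). These lowest ratios thus came from 3 different complexes. In complex IV mt-Co3, a structural core subunit, went from 4267 to 2355 CPM (ratio 0.552). The copper-binding subunit 2, mt-Co2, went from 8097 to 5226 CPM (ratio 0.645). The catalytic subunit 1 of the same complex, mt-Co1, went the other way, from 4799 to 6799 CPM, with a ratio of 1.42 (1.41 to 1.43).

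The other mitochondrial genes of complex I lay on both sides of 1. The ratio was 0.590 for mt-Nd1 (1586 to 936 CPM), 0.605 for mt-Nd4l (680 to 412 CPM) and 0.764 for mt-Nd3 (288 to 220 CPM), all core subunits of the membrane arm. For mt-Nd2 it was 0.949 (1583 to 1502 CPM), a direction that flipped under 3 scalings and 4 choices of cells. For mt-Nd5 it was 1.21 (468 to 568 CPM). The highest ratio belonged to mt-Nd6, the 1 subunit gene on the minus strand (13552 to 14070), at 24.9 and 57.7 CPM, or 2.31 (2.13 to 2.51). Under each scaling and choice of cells tried, the log2 ratios stayed above 0 for mt-Co1 (0.35 to 0.69), mt-Nd5 (0.17 to 0.41) and mt-Nd6 (0.90 to 1.42). By endothelial-like cluster, however, levels overlapped for mt-Co1 (3475 to 7473 CPM in control, 5694 to 11262 CPM in mutant clusters). Those of mt-Nd5 also overlapped (398 to 790 and 531 to 692 CPM). A subunit of the stator side of complex V, mt-Atp8, was at 112 and 113 CPM (ratio 1.01), while its overlapping neighbour mt-Atp6 was among the lowest. Summed by complex, the mitochondrial genes of complex I had a ratio of 0.651, of complex III 0.416, of complex IV 0.838 and of complex V 0.484.

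**Figure D1:**
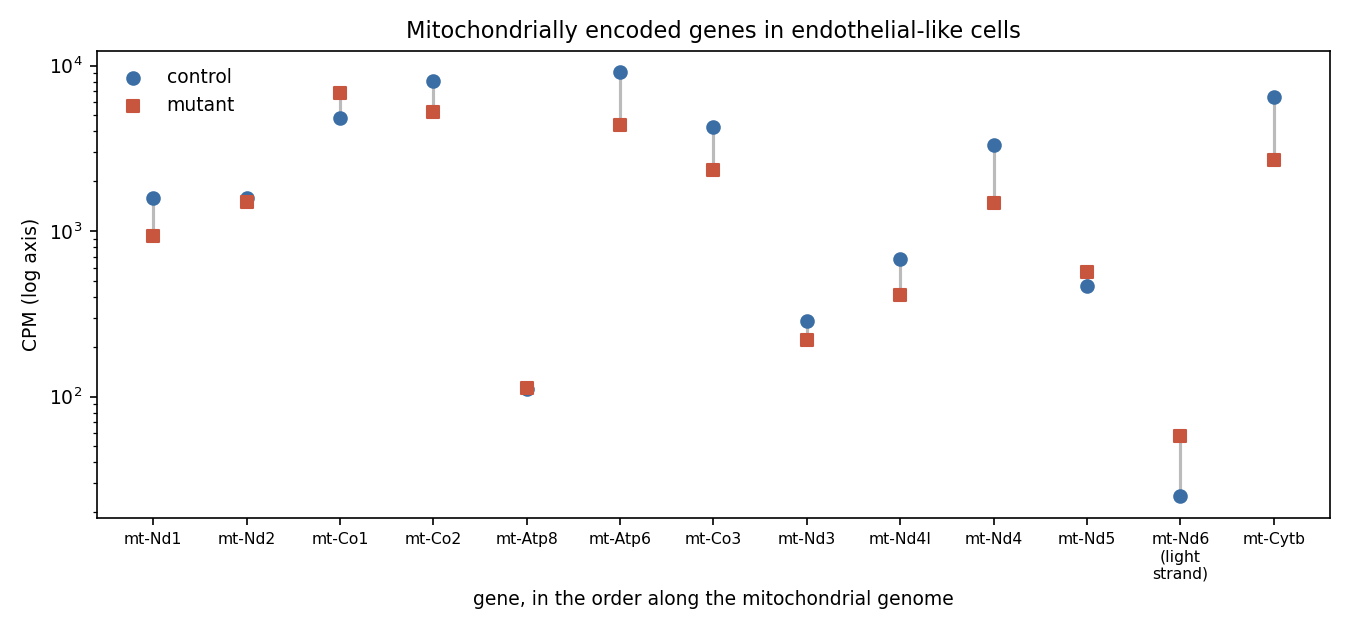
Level of each mitochondrially encoded subunit gene in endothelial-like cells, in CPM on a log axis, in the order of the genes along the mitochondrial genome; circles are the control library, squares the mutant library and grey lines join the pair. The squares lie above the circles for mt-Co1, mt-Nd5 and mt-Nd6 and lie on them for mt-Atp8.

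Within the mitochondrial UMIs, mt-Co1 took 11.7% in the control and 25.4% in the mutant, and mt-Cytb took 15.8% and 10.1%. The share of mt-Co2 was almost the same in both, at 19.8% and 19.5%, and that of mt-Atp6 was 22.4% and 16.3%. The shift in mt-Co1 was seen in every cluster with at least 50 cells of a library. Its share lay between 8.17% and 12.7% in the 11 control clusters and between 20.4% and 29.0% in the 8 mutant clusters, so the groups did not overlap. The shares of mt-Nd5, mt-Nd6 and mt-Atp8 also lay higher in every mutant cluster than in any control cluster. Those of mt-Atp6, mt-Co3, mt-Nd4 and mt-Cytb lay lower in every mutant cluster. The other 5 genes overlapped. Shares of 1 total depend on each other, so these counts are not independent.

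The difference in the share of mt-Co1 was not limited to cells of the endothelial-like class. In mesenchyme-like cells, which the sort should have removed, the share was 11.3% in 168 control cells and 22.2% in 63 mutant cells. Clustering at resolution 1.5 named a neural-like cluster (89 control and 45 mutant cells) beside a mesenchyme-like one (79 and 18 cells). The class may thus mix both cell types, in proportions that differ between the libraries. In hematopoietic-like cells the share of mt-Co1 was 11.9% in 151 control and 23.8% in 11 mutant cells. In cluster 10, led by hemoglobin genes, it was 8.17% and 25.5%. Endothelial-like cells were also split by the share of all UMIs that was mitochondrial. The share of mt-Co1 was between 10.1% and 13.3% in the 6 control bins and between 24.8% and 27.0% in the 6 mutant bins, from cells under 2% to cells over 10%. A difference that runs through all cell classes of a library cannot be told apart from a difference between the libraries.

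**Figure D2:**
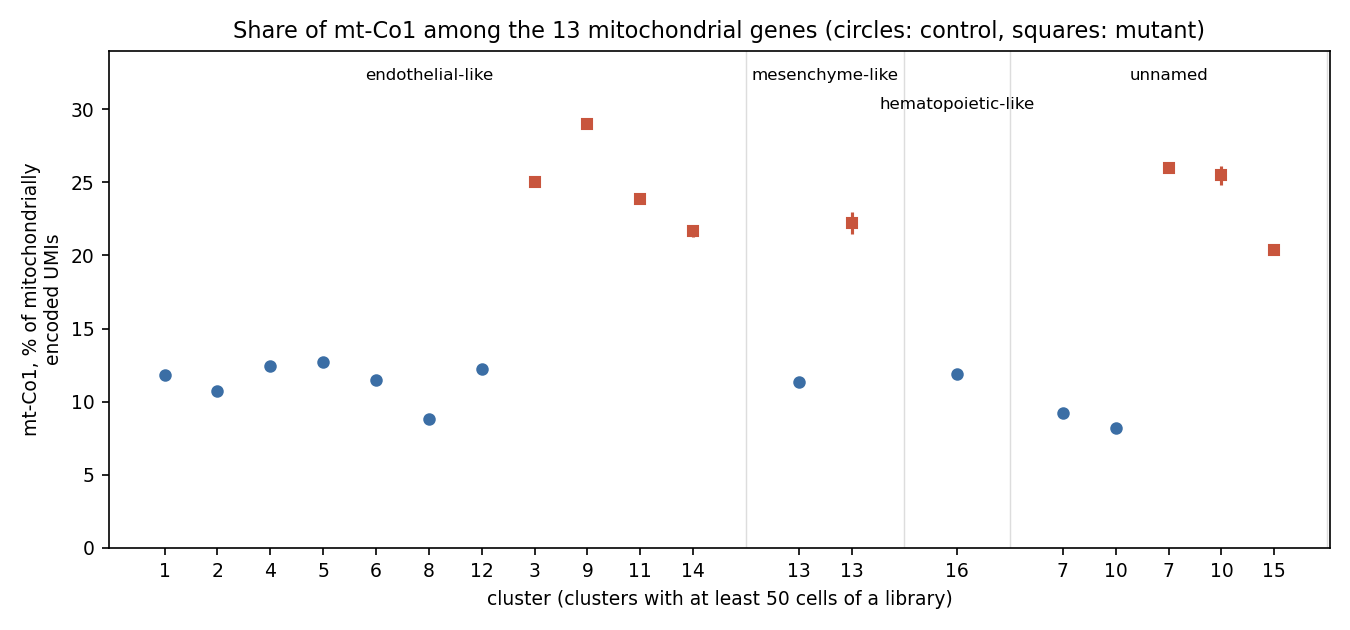
Share of mt-Co1 among the UMIs of the 13 mitochondrially encoded genes, in percent, for each cluster with at least 50 cells of a library, arranged by cell class; circles are control, squares mutant, and bars are 95% binomial (Clopper-Pearson) intervals, mostly smaller than the symbols. All 11 control values lie at or under 12.7% and all 8 mutant values at or over 20.4%.

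Per cell, mitochondrial genes took a median of 3.96% of UMIs in control endothelial-like cells (quartiles 3.01% and 6.55%) and 2.58% in mutant ones (1.87% and 3.73%). Cells above 10% were 914 (15.3%) and 118 (5.03%). A high mitochondrial share is a common mark of damaged cells; its part in the lower mutant sum was not tested. Keeping only cells at or under 10% gave a log2 ratio of -0.52 for the sum, against -0.61 with all of them. Thinned to 2500 UMIs, which left out 754 control and 299 mutant cells as shallower, a cell held a median of 94 (control) and 61 (mutant) mitochondrial UMIs.

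The nuclear subunit genes differed much less as a whole. Their 81 subunit genes summed to 37031 CPM in control and 33442 CPM in mutant endothelial-like cells (ratio 0.903, 0.901 to 0.906). Because CPM falls when mitochondrial RNA takes more of a library, the sum was also taken over UMIs outside the mitochondrial genes; it was then 38608 and 34361 CPM, a ratio of 0.890. Thinned cells held medians of 93 (quartiles 82 and 103) and 82 (73 and 94) nuclear subunit UMIs. The median log2 ratio was -0.21 over the 78 nuclear subunit genes with at least 20 UMIs and -0.18 over all 12876 genes measured so. The nuclear sum thus lay 0.03 above the median gene on the log2 scale, but at -0.07 from it in all cells, -0.09 with unnamed clusters added and -0.00079 in cells of at most 10% mitochondrial share, so its sign depends on the cells taken. The mitochondrial sum lay 0.43 below the median gene (log2 difference -0.43). Other scalings moved the median of all genes by 0.12 to 0.14, and values near 1 are to be read with that shift.

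Single members spread widely around that median. Of the 93 with at least 20 UMIs over both libraries, 7 were at least 1.5-fold higher (7.53%) and 17 at least 1.5-fold lower (18.3%) in the mutant. Of all 12876 genes with as many UMIs, 14.4% were higher and 26.0% lower by that fold. Among genes with a mean of at least 50 CPM, the shares were 8.02% and 19.7%, and those of the 86 members at that level 4.65% and 18.6%. The members' counts were therefore near or under the background. With edgeR's TMM scaling the split was 8 higher and 11 lower, but the shares of all genes were not counted at that scaling. Counting intervals lay above 1 for 26 members and below 1 for 59, against 23.7% and 43.7% of all genes, and 30.3% and 59.3% of genes at 50 CPM.

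**Figure D3:**
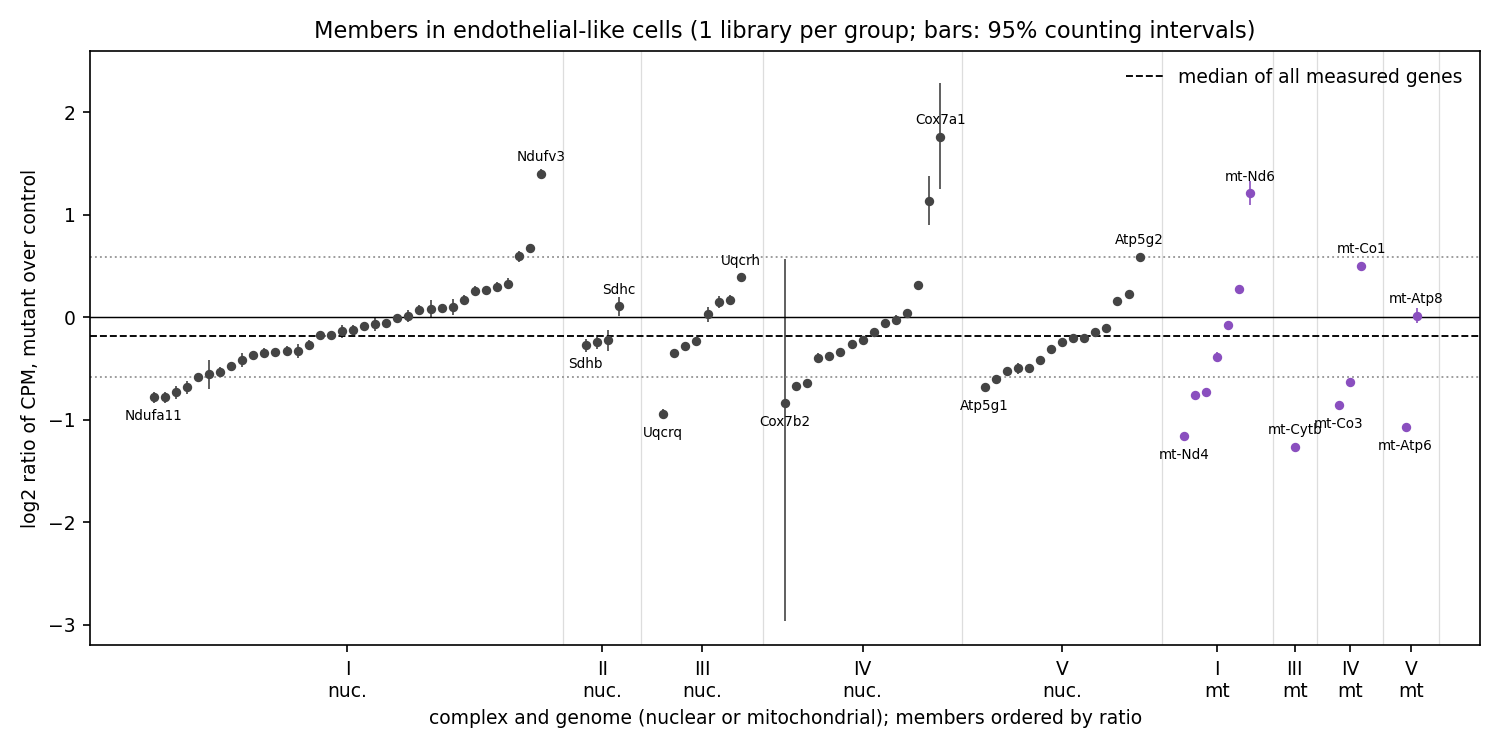
Log2 ratio of mutant over control CPM in endothelial-like cells for each subunit gene with at least 20 UMIs, by complex and genome and ordered by ratio within each; bars are 95% counting intervals, dotted lines mark 1.5-fold and the dashed line is the median of all measured genes (-0.18). Ndufv3, Cox7a1 and mt-Nd6 stand highest, mt-Cytb and mt-Nd4 lowest.

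Complex I takes electrons from NADH and is the largest complex. Its 36 nuclear genes summed to 10533 and 9840 CPM (ratio 0.934, 0.929 to 0.939), a direction that flipped under 3 scalings. Of all 12876 measured genes, 4949 had a ratio above 1 and 7927 below, and the counts that follow are to be read against these. The 7 core subunits, which carry the flavin and the iron-sulfur clusters, went from 1115 to 1231 CPM (ratio 1.10, 1.09 to 1.12), with 5 of 7 above 1. The 29 accessory subunits, which surround and stabilize the core, had a ratio of 0.914, with 8 above and 21 below 1; on the log2 scale that ratio is about as far from 0 as the scalings differ.

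The most deviant nuclear gene of complex I was Ndufv3, an accessory subunit of the NADH-binding module (chromosome 17, 31520115 to 31531331, plus strand). It went from 145 to 382 CPM, 2.64 times the control level (2.56 to 2.72). Its control clusters ranged from 129 to 172 CPM and its mutant clusters from 368 to 447 CPM, so the groups lay far apart. Ndufa7, another accessory subunit of the matrix arm, was at 357 and 569 CPM (ratio 1.59). Ndufa6, which belongs to the family of LYR proteins and binds the acyl carrier protein Ndufab1, was at 150 and 227 CPM (ratio 1.51). That partner, Ndufab1, the most abundant by UMI in the control, was instead lower at 576 and 456 CPM (ratio 0.791). The other abundant genes of complex I were Ndufa8, at 564 and 376 CPM (0.668, just inside 1.5-fold), and Ndufb5, at 547 and 525 CPM (0.960, a direction that flipped under 3 scalings).

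At the other end stood accessory subunits of both arms. Ndufa11, in the membrane arm, went from 303 to 176 CPM (ratio 0.582). Ndufa5, in the matrix arm, went from 316 to 184 CPM (ratio 0.583), and Ndufb2, in the membrane arm, from 236 to 142 CPM (ratio 0.602). Their control and mutant clusters did not overlap: for Ndufa11 the lowest control cluster had 280 CPM and the highest mutant cluster 192 CPM. The nuclear genes of this complex thus ranged from 0.582 to 2.64.

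Complex II, succinate dehydrogenase, has no mitochondrially encoded part and also serves the citric acid cycle. Its genes summed to 437 and 383 CPM (ratio 0.875, 0.852 to 0.898). The iron-sulfur subunit Sdhb was at 176 and 146 CPM (ratio 0.828). The membrane anchor Sdhd was at 131 and 111 CPM (ratio 0.846), and the flavoprotein Sdha at 65.6 and 56.2 CPM (ratio 0.857). The second anchor, Sdhc, was at 64.7 and 69.6 CPM (ratio 1.08, 1.01 to 1.15), a direction that flipped in cells with low cycle scores. None of the 4 passed 1.5-fold.

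Complex III passes electrons from ubiquinol to cytochrome c. Its nuclear genes summed to 3745 and 3452 CPM (ratio 0.922, 0.914 to 0.930), which flipped under 2 scalings. The lowest was Uqcrq, a small subunit next to cytochrome b (chromosome 11, 53427922 to 53430831, minus strand), at 486 and 253 CPM, with a ratio of 0.521 (0.504 to 0.537). Its clusters ranged from 391 to 629 CPM for the control and from 194 to 301 CPM for the mutant. The highest was Uqcrh, the hinge protein that contacts cytochrome c1, at 795 and 1043 CPM (ratio 1.31); it has named pseudogenes, so its count is less certain. The most abundant, Uqcrb, a ubiquinone-binding subunit, was at 987 and 814 CPM (ratio 0.824), and Uqcr10 at 565 and 445 CPM (ratio 0.788). The Rieske iron-sulfur protein gene Uqcrfs1 had a ratio of 1.12 and the core protein gene Uqcrc2 one of 1.11. So within complex III the mitochondrial gene was at 0.416, its small neighbour Uqcrq at 0.521, and Uqcrfs1 and Uqcrc2 above 1.

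Complex IV, cytochrome c oxidase, hands the electrons to oxygen. Its nuclear genes summed to 11341 and 9801 CPM, with a ratio of 0.864 (0.860 to 0.869), within the interval of complex II. The most abundant by UMI in the control, Ndufa4, was once placed in complex I and is now counted here (chromosome 6, 11900292 to 11907497, minus strand). It was at 1868 and 1171 CPM (ratio 0.627, 0.618 to 0.636), and its clusters ranged from 1486 to 2245 CPM and from 839 to 1294 CPM. Cox5a, a matrix-side subunit, was at 1039 and 666 CPM (ratio 0.641), but its clusters overlapped, at 738 to 1268 CPM and 543 to 810 CPM. Cox6a1, the general isoform of subunit 6a, was at 329 and 251 CPM (ratio 0.761).

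The small subunit gene Cox8a was the other way round, at 1361 and 1691 CPM (ratio 1.24). Cox7c, also a small subunit, was at 1267 and 1302 CPM (ratio 1.03), a direction that flipped when all cells were used. Cox7a2l, which joins complexes III and IV into supercomplexes, had a ratio of 0.984 (0.95 to 1.02). Tissue isoforms of complex IV were rare; they fall outside the rule for naming genes and were chosen after their values were seen, apart from those with under 20 UMIs. Cox7a1, the heart and muscle isoform, had 62 and 69 UMIs, or 1.11 and 3.76 CPM (ratio 3.39, 2.37 to 4.86). The testis isoform Cox6b2 was at 6.16 and 13.6 CPM (ratio 2.20), and the testis isoform Cox7b2 had 24 and 4 UMIs (ratio 0.508, 0.128 to 1.48). Cox6a2 had 0 and 1 UMI, and Cox8b and Cox8c had 0 in both, where a count of 0 allows up to 0.0536 and 0.163 CPM.

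Complex V, the ATP synthase, has a catalytic head outside the membrane and a rotating ring of c subunits within it. Its nuclear genes summed to 10974 and 9967 CPM (ratio 0.908, 0.904 to 0.913). The 5 head subunits together had a ratio of 0.972; the rotor stalk genes Atp5c1 (1.17) and Atp5d (1.11) were above 1, while Atp5e, the smallest, was at 944 and 798 CPM (0.845). Of the stalk that holds the head, Atp5h was at 1083 and 939 CPM (ratio 0.867) and Atp5j at 853 and 592 CPM (ratio 0.694).

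The c ring showed opposite differences among genes for the same protein. Atp5g1, Atp5g2 and Atp5g3 encode an identical mature c subunit behind different import sequences, so the ring can be built from any of them. Atp5g2 (chromosome 15, 102662864 to 102672352, minus strand) went from 1380 to 2076 CPM (ratio 1.5, 1.49 to 1.52). Atp5g1 (chromosome 11, 96068852 to 96075670, minus strand) went from 800 to 500 CPM (ratio 0.625, 0.611 to 0.639), and Atp5g3 (chromosome 2, 73908447 to 73911326, minus strand) from 577 to 380 CPM (ratio 0.660, 0.643 to 0.677). Their sum nonetheless differed little, at 2756 and 2956 CPM (ratio 1.07, 1.06 to 1.08). Clusters of Atp5g2 ranged from 1171 to 1606 CPM for the control and from 1888 to 2323 CPM for the mutant, with no overlap. Those of Atp5g3 ranged from 439 to 644 and from 303 to 417 CPM, also apart, while those of Atp5g1 overlapped (534 to 1064 and 350 to 578 CPM). Over the alternatives tried, the log2 ratios stayed between 0.55 and 0.73 for Atp5g2, between -0.76 and -0.49 for Atp5g1 and between -0.64 and -0.46 for Atp5g3.

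The sequences just upstream of the RefSeq starts of these c-ring genes are shown because the genes share a product but differ in expression. Each is the 250 bases before the RefSeq start, read 5′ to 3′ on the gene's strand, in build GRCm38.p6: Atp5g1 at chr11:96075632-96075881, Atp5g2 at chr15:102671048-102671297 and Atp5g3 at chr2:73911327-73911576, all minus strand. Capitals mark a match to the core motif of NRF1 (GCGCA, any base, GCGC), a transcription factor known to act on many nuclear genes of the respiratory chain.
Atp5g1, upstream: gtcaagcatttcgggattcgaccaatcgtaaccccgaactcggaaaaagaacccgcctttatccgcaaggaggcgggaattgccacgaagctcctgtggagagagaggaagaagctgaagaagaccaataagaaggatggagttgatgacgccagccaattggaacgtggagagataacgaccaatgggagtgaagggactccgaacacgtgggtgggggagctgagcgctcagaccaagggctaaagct
Atp5g2, upstream: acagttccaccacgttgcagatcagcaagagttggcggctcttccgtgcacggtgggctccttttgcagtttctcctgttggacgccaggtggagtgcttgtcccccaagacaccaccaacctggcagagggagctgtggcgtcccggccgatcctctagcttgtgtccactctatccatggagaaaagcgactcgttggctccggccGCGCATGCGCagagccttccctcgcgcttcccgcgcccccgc
Atp5g3, upstream: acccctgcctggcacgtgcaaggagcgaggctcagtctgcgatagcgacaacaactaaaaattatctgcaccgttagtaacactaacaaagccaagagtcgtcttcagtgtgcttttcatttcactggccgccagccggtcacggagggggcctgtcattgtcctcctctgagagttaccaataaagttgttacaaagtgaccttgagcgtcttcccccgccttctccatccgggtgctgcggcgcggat
Of these windows the one of Atp5g2 holds the motif. The gene spans given above are from GENCODE, whose starts can differ from those of RefSeq. By these spans the Atp5g2 window lies inside the gene, and the Atp5g1 window overlaps the start of its gene. RefSeq had a start for 70 of the 83 nuclear members. Of these genes, 13 (18.6%) held this motif on either strand in any of their windows, against 4.23% of 27025 genes. The ETS motif CCGGAAG, searched the same way, was in 12 (17.1%) against 7.83%. Both motifs were found in 3 genes, though not necessarily in the same window. The NRF1 letters were in 1 of 6 members higher by 1.5-fold, in 2 of 9 lower ones and in 10 of 54 between, and the ETS letters in 0 of 6, 1 of 9 and 11 of 54, counts too small to compare. A match is a description of the sequence and says nothing of binding.

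The endothelial-like cells fell into 7 clusters of control and 4 clusters of mutant cells, with almost no cluster shared, so the spread over clusters of a library served as a yardstick. It is a spread within 1 library, not between animals. Of the nuclear members, 10 were higher in every control cluster than in any mutant cluster: Ndufa11, Ndufa5, Ndufb2, Ndufb6, Ndufa10, Uqcrq, Ndufa4, Atp5g3, Atp5j and Atp5k. Another 7 were higher in every mutant cluster: Ndufa6, Ndufa7, Ndufv3, Uqcrh, Cox6b2, Cox7a1 and Atp5g2. Of the mitochondrial genes, mt-Nd4, mt-Nd1, mt-Cytb and mt-Atp6 were higher in every control cluster and mt-Nd6 in every mutant cluster. The remaining 66 nuclear and 8 mitochondrial members overlapped. Together that is 15.1% of the 93 measured members for the control and 8.60% for the mutant, against 9.53% and 5.14% of all genes and 16.4% and 8.84% of genes at 50 CPM or more. Against genes of like abundance the members' shares were thus not higher.

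**Figure D4:**
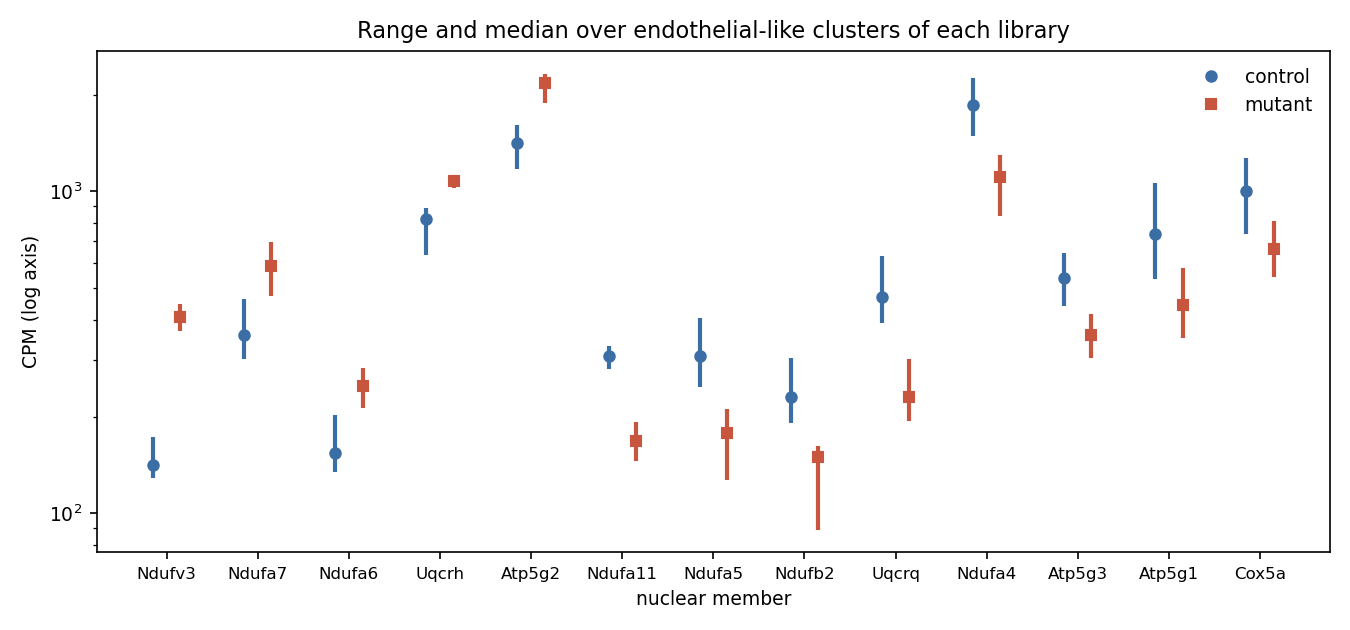
CPM on a log axis of 13 nuclear members named in the text, over the endothelial-like clusters with at least 50 cells of a library; bars run from the lowest to the highest cluster and the symbol is the median, circles for 7 control and squares for 4 mutant clusters. The bars of Ndufv3 lie farthest apart (129 to 172 and 368 to 447 CPM), while those of Atp5g1 and Cox5a overlap.

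The 2 genomes did not move in step over the clusters. Among the control endothelial-like clusters, mitochondrial members took between 3.20% and 6.95% of UMIs and nuclear members between 3.36% and 4.70% of UMIs outside mitochondrial genes. In the mutant clusters the ranges were 2.29% to 3.88% and 3.03% to 3.96%, so both overlapped with the control. The highest nuclear share was in cluster 8, of 497 control cells, where the members Cox6a1 and mt-Nd4l were among the 10 leading genes. Cluster 7, of shallow cells without a name, had the lowest nuclear share in each library (2.12% and 2.47%) and the highest mitochondrial share (31.0% and 10.1%). Its median depth was 999.5 UMIs in 108 control and 1759 UMIs in 453 mutant cells, and the part of cell damage was not tested. The mutant cells of cluster 15, led by smooth muscle genes, had 2.59% nuclear and 3.12% mitochondrial.

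**Figure D5:**
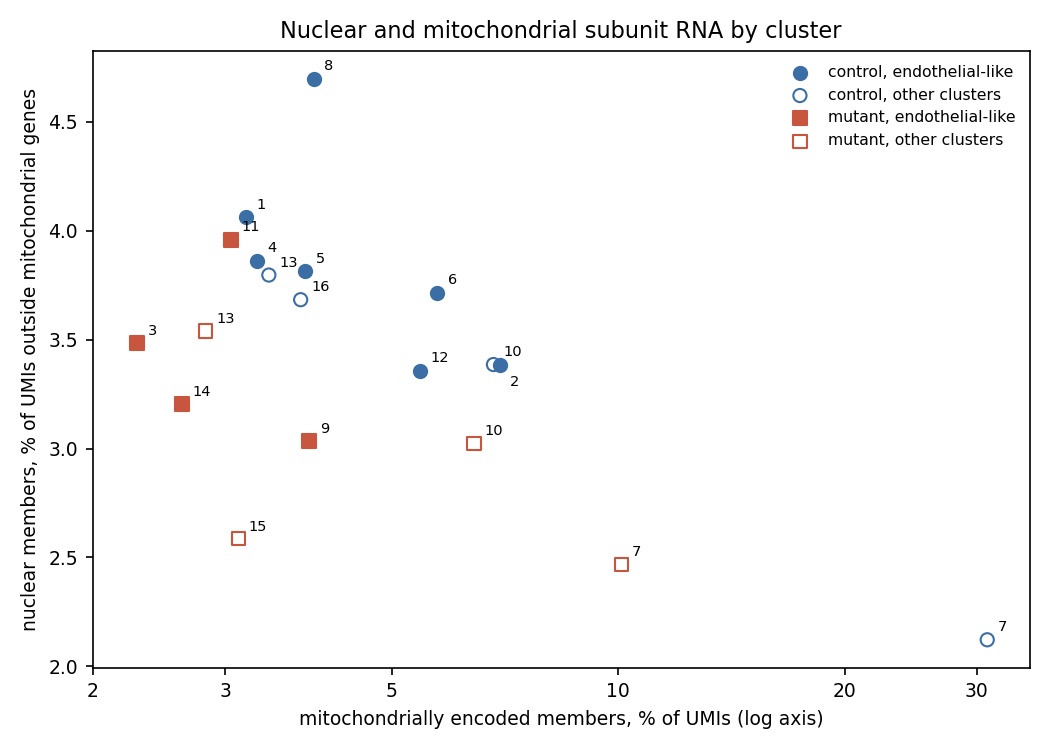
Nuclear members in percent of UMIs outside mitochondrial genes against mitochondrially encoded members in percent of all UMIs (log axis), 1 point per cluster and library with at least 50 cells, with cluster numbers; circles are control, squares mutant, filled symbols endothelial-like. Cluster 8 is highest on the nuclear axis at 4.70%, and the 2 points of cluster 7 lie at the right and low, with 31.0% and 10.1% mitochondrial.

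Cells outside the endothelial-like class shared these directions in part. The mesenchyme-like class may hold neural cells as well, as described above. In mesenchyme-like cells, all 6 measured members that were higher past 1.5-fold in endothelial-like cells were above 1, and all 16 that were lower were below 1. Of all genes past that fold, 78.5% of the higher and 89.2% of the lower ones kept their side there, so the members' agreement was near that of genes in general. Ndufv3 had a ratio of 2.61 (2.14 to 3.18) in these cells, from 167 to 434 CPM. Atp5g2 was at 1394 and 2149 CPM (ratio 1.54), mt-Co1 at 3888 and 6280 CPM (ratio 1.62) and mt-Cytb at 5204 and 2973 CPM (ratio 0.571). Uqcrq was closer to 1 than in endothelial-like cells, with a ratio of 0.784 (0.647 to 0.944), and so was Atp5g3, at 0.973 (0.840 to 1.12); with 1 library each the difference between cell classes was not tested. In cluster 10 the same held for 5 of 6 and 16 of 16, against 93.5% and 86.5% of all genes. The exception was Cox6b2, with 57 and 9 UMIs and a ratio of 0.460 (0.200 to 0.935). In cluster 7 it held for 5 of 5 and 12 of 16, against 91.3% and 74.0%; Ndufa5 (1.84, 0.868 to 4.69), Ndufb6 (1.16), Ndufa4 (1.15) and Cox5a (1.17) were above 1 there, all with intervals that include 1. The median log2 ratio of the members in this shallow cluster was 0.42 against 0.05 for all genes, where it was -0.21 in endothelial-like cells. Of the sums by genome, only the nuclear one went the other way there, from 14650 CPM in control to 22186 CPM in mutant cells. Taken over UMIs outside mitochondrial genes, the nuclear share differed less, at 2.12% and 2.47%. The mitochondrial sum of cluster 7 was lower in the mutant, at 309626 and 100975 CPM, as in endothelial-like cells.

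Genes around the respiratory chain were counted from lists, without a test, and their medians stand beside -0.18 for all genes. Their counts are to be read against 14.4% of all genes higher and 26.0% lower by 1.5-fold; no list's count was tested against that background. Mobile electron carriers and linked dehydrogenases had 1 higher and 4 lower by 1.5-fold among 16, a share of lower genes near that background, with a median log2 ratio of -0.36. Cycs, cytochrome c itself, which carries electrons from complex III to IV, was at 459 and 126 CPM (ratio 0.274), lower than any measured subunit gene. Cyc1, the heme-bearing cytochrome c1 of complex III, whose name falls outside the rule, was at 218 and 133 CPM (ratio 0.611). At the high end of that list were Coq7 (0.828) and Etfb (0.880) among genes of at least 20 CPM. The citric acid cycle had 0 higher and 6 lower among 14 and a median of -0.42, with Idh3a at 0.442 and Ogdh at 0.448, but Suclg2 at 1.29 and Idh3b at 1.36. The medians of both lists lay below that of the subunits (-0.21).

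Of 44 assembly factors, 2 were higher and 7 lower, with a median log2 ratio of -0.15. Those of complex I were at both ends: Ndufaf4 at 0.302 (72.7 to 21.9 CPM) and Ndufaf2 at 0.406, but Tmem126b at 1.49, with the complex IV copper factor Sco2 at 1.5. Of 76 mitochondrial ribosomal protein genes, 2 were higher and 14 lower (median -0.26), a smaller share than of all genes in each direction, from Mrps6 at 0.333 and Mrpl16 at 0.402 to Mrpl24 at 1.56 and Mrpl23 at 1.96. Genes of mitochondrial DNA upkeep and transcription had 3 higher and 4 lower among 17 (median -0.19). The mitochondrial transcription factor Tfam was at 36.8 and 35.6 CPM (ratio 0.966, 0.883 to 1.06), the DNA-binding Ssbp1 at 1.04, and the RNA-binding Slirp (0.693) and Fastkd2 (0.695) lower. All of these lay within 1.5-fold, and the genes of this list counted past it had a mean under 20 CPM. The mitochondrial messages summed to 0.654 of control, and any link between them and the levels of these genes was not tested.

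Regulators of mitochondrial gene programs had 0 higher and 3 lower among 9 (median -0.39); Nrf1 was at 0.915 (0.810 to 1.03), Gabpb1 at 0.993 and Yy1 at 0.704. Import and outer membrane genes had 0 higher and 7 lower among 16 (median -0.29). The counts of both lists stand beside 14.4% of all genes higher and 26.0% lower, and were not tested against them. The ATP exporter Slc25a5 was at 767 and 349 CPM (ratio 0.455) and the import pore Tomm40 at 0.517, while Vdac1 was at 1.12 and Timm44 at 1.22.

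The isoforms and regulators linked to low oxygen went the other way, with 5 of 6 higher past 1.5-fold and a median log2 ratio of 2.69. Ndufa4l2, the isoform related to Ndufa4, had 35 control and 1622 mutant UMIs, or 0.625 and 88.3 CPM, while Ndufa4 itself went from 1868 to 1171 CPM. In absolute terms Ndufa4 remained the more abundant in the mutant. Bnip3, a receptor for the removal of mitochondria that low oxygen induces, was at 18.3 and 304 CPM (ratio 16.6). Its relative Bnip3l was at 174 and 413 CPM (ratio 2.37), and the protease Lonp1 at 18.2 and 25.2 CPM (ratio 1.39). The lists were drawn up with earlier results of these data known, so their direction is not independent evidence.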

How the data were processed

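Per the file headers, the authors deposited raw UMI counts for 9917 cells and 27998 genes. The submitters' processing notes name Cell Ranger and build mm10; the annotation release is not given in the sources used here. A deposited cell table gives each cell's genotype word, total count, mitochondrial fraction and size factor, a ratio that was not used. Totals and fractions recomputed from the matrix matched the authors' values in all 9917 cells, and the lowest total was 501 UMIs.

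Cells of the 2 libraries were clustered jointly with no batch term: 2000 variable genes (members and genes for ribosomal proteins, hemoglobins, sex-linked and mitochondrial RNAs left out), 30 components, 20 neighbours, Leiden resolution 1 (leidenalg 0.10.2, igraph 0.11.9, scikit-learn 1.9.0). Clusters were named from marker lists; a cluster was endothelial-like where these markers reached at least 0.5 of their median over clusters and its leading genes were not of another class. No doublet caller was run and free RNA was not removed. For each class, a library's counts were added up and divided by their total to give CPM; a UMI is 1 molecule, so levels were not divided by gene length. Intervals at 95% (scipy 1.17.1) are exact: Poisson for levels, conditional binomial for ratios, Clopper-Pearson for shares. PCR duplicates are removed by UMIs; intervals cover counting error only. The floor for a count of 0 is 3 UMIs. Medians and counts use genes with at least 20 UMIs over both libraries. On Poisson counts simulated from the control endothelial-like profile, the intervals covered the true ratio for 96% of 200 changed and 95.52% of 12596 unchanged genes. Such draws hold counting error only, as the intervals assume. They check the calculation and not the spread between cells or libraries.

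With 1 library per group no test was run. The members and lists were chosen with earlier results of these data known. Named were all mitochondrial and Sdh genes; in each other nuclear complex the 3 most abundant in the control, the 3 highest and the 3 lowest by ratio with a mean of at least 20 CPM; members under 20 UMIs; and the 2 highest and 2 lowest of each other list. Alternatives were TMM (edgeR 4.0.16) and median-of-ratios scaling, other totals, other sets of cells, resolutions 0.5 and 1.5, cells thinned to 2500 UMIs, a 2-fold bound and at least 100 UMIs. Totals of UMIs outside mitochondrial genes were added after seeing the data. The count for 5 members (Atp5c1, Atp5k, Atp5l, Ndufab1, Uqcrh) may include reads of named pseudogenes.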

Additional observations from a re-analysis of the deposited data

How the results depend on the processing

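No paired analysis was possible because each group has 1 library. All values here are log2 ratios of mutant over control in the order nuclear complexes I, II, III, IV and V, all nuclear members, all mitochondrial members and the median of members, unless counts are named; as reported they were -0.10, -0.19, -0.12, -0.21, -0.14, -0.15, -0.61 and -0.21. TMM scaling gave 0.017, -0.078, -0.0023, -0.095, -0.024, -0.032, -0.50 and -0.090, median-of-ratios scaling 0.030, -0.065, 0.011, -0.082, -0.011, -0.019, -0.48 and -0.077, and totals without mitochondrial, ribosomal-protein and hemoglobin genes 0.038, -0.057, 0.019, -0.074, -0.0023, -0.010, -0.48 and -0.069. These 3 scalings thus reversed complex I, and the last 2 complex III. Each left 11 members lower by 1.5-fold, not 17, but the shares of all genes were not counted anew. All cells gave -0.14, -0.22, -0.15, -0.25, -0.18, -0.19, -0.42 and -0.24, adding the unnamed clusters -0.15, -0.22, -0.15, -0.26, -0.18, -0.19, -0.42 and -0.23, and resolution 0.5 gave -0.069, -0.17, -0.10, -0.18, -0.11, -0.12, -0.72 and -0.19. Cells with low cycle scores gave -0.14, -0.27, -0.13, -0.22, -0.13, -0.16, -0.64 and -0.25, thinned cells -0.087, -0.21, -0.086, -0.20, -0.13, -0.14, -0.70 and -0.22, and cells of at most 10% mitochondrial share -0.11, -0.19, -0.13, -0.22, -0.15, -0.16, -0.52 and -0.20. Control cells with Xist and without Y-linked UMIs (2544, taken as female) were set against all 2346 mutant cells, which were not filtered by sex. They gave -0.080, -0.18, -0.10, -0.19, -0.12, -0.13, -0.55 and -0.19, and totals outside mitochondrial genes -0.12, -0.21, -0.14, -0.23, -0.16, -0.17, -0.63 and -0.23. Resolution 1.5 moved the mitochondrial sum to -0.62 and the median to -0.20, and leaving out the deepest 1% of cells moved complex II to -0.20 and the others by no more than 0.01. A 2-fold bound left 4 members higher and 3 lower, and the shares of all genes at that bound were not counted. Of single genes, Ndufb5 reversed to 0.057, 0.070 and 0.078 and mt-Nd2 to 0.040, 0.053 and 0.061 under the 3 scalings in that order. In all cells mt-Nd2 reversed to 0.056, with unnamed clusters to 0.058, with low cycle scores to 0.0041 and at most 10% mitochondrial share to 0.015. Cox7c reversed to -0.0084 in all cells and -0.0059 with unnamed clusters, and Sdhc to -0.029 with low cycle scores. Beyond the scalings' own shift, the cause was not tested. Counting depth limits mainly the rare isoforms of complex IV.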
